A study of Mus musculus with 9 samples.

Results

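Il1rl1 and Map3k14 are the pair of immune signalling genes described here, taken by name from a deposited table of 98 mouse genes. Bulk RNA of pulverised maxillae was sequenced by CEL-Seq2, which counts mRNAs at their 3′ ends, with 1 library per sample. In Spon. Healing (NT in the labels, n = 4) the alveolar bone defect left by extraction of the upper first molar was left to heal without a graft, and in Allograft (SALINE in the labels, n = 5) the defect was filled with allograft particles and saline. All were male C57BL mice, 8 weeks old when obtained and sacrificed 2 weeks after the procedure. No mouse of either group had received resolvin D1, and no unoperated bone is among the samples used here. The graft was made from cell-free femurs and tibias of C57BL/6 mice, so donor and host shared the strain. The methods call the replicates biological and speak of the 3 with the most RNA, while the labels give 4 and 5 libraries and do not name the mice.

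The authors compared these same groups, and each of the 98 genes has an adjusted p below 0.1 there. Both members were picked from that table for their difference. The group differences below are therefore descriptions, without a test, and genes outside the table were not analysed here. Of the 98 genes, 65 were higher and 33 lower in Allograft. The raw counts had been divided by 1 size factor per library (Spon. Healing 0.577 to 1.44, Allograft 0.653 to 2.20) to give the normalized counts. The listed genes held 60516 to 230063 raw counts per Spon. Healing library and 130890 to 443678 per Allograft library, but these sums are not depths, and the depth of the libraries is unknown here. Defining markers of bone cells and of immune cells are not in the table, so the labelled tissue could not be checked against them.

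Il1rl1 encodes ST2, the receptor for interleukin 33 (IL-33), an alarmin released from damaged stromal and epithelial cells. On binding IL-33, ST2 pairs with the accessory protein encoded by Il1rap and signals through MyD88 and IRAK kinases to canonical NF-kB and MAP kinases. Mast cells, group 2 innate lymphoid cells, T helper 2 cells and tissue regulatory T cells are known to carry it. Map3k14 encodes the kinase NIK, which in resting cells is held low by a complex of TRAF2, TRAF3 and cIAP proteins. When receptors such as the lymphotoxin β receptor, CD40, the BAFF receptor or RANK are engaged, NIK accumulates, activates IKKα (encoded by Chuk) and drives the processing of p100 (Nfkb2) to p52. RANK is the receptor through which osteoclast precursors receive RANKL, which makes NIK a kinase of osteoclast formation as well as of lymphoid tissue.

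The counts are per gene, so the transcripts that a count pools matter for both members. Il1rl1 (ENSMUSG00000026069) lies at chr1:40429570-40465415 of GRCm38 on the plus strand and has 5 annotated transcripts. The 2 transcripts of membrane-bound ST2 encode 567 residues, and the 2 of soluble ST2, a secreted decoy that binds IL-33 without signalling, encode 337. Both forms share their first 985 coding bases, which hold 328 whole residues. From there the soluble form (transcript Il1rl1-203) ends after 29 more coding bases, stop codon included (chr1:40446676-40446704), while the membrane form (Il1rl1-202) goes on at chr1:40450075-40450103 and runs for 719 coding bases. The sequences at this point show where the forms part. The last 30 shared bases are in lower case, and the capitals mark the first 29 bases that belong to 1 form only.
soluble ST2: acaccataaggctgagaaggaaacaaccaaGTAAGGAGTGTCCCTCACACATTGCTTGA
membrane ST2: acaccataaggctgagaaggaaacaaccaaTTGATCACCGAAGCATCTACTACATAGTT
The 3′ ends of these 2 transcripts lie 17267 bases apart. The table holds 1 count per gene, so the forms were not told apart here.

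Il1rl1 also has 2 transcript starts with a RefSeq promoter entry, 10057 bases apart in the annotated transcripts, a distal and a proximal one. Their upstream windows are shown because the gene's count pools both, with every match to the GATA factor motif in capitals (AGATAA, also with T as its first letter or G as its last letter, on either strand). The sequences are RefSeq's for GRCm38.p6 and end just before the first exon of the transcript that starts there.
Il1rl1 distal, chr1:40429320-40429569, plus strand: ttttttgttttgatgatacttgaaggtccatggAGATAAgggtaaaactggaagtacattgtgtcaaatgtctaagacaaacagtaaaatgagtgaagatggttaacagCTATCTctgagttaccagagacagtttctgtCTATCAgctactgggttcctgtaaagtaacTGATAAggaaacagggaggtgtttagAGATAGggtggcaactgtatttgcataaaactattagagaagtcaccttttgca
Il1rl1 proximal, chr1:40439379-40439626, plus strand: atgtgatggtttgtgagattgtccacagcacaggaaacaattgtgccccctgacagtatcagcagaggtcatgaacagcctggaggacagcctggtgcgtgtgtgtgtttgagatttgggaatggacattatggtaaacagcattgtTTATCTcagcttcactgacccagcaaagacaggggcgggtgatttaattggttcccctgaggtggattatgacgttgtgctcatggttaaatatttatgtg
Map3k14, chr11:103267473-103267651, minus strand: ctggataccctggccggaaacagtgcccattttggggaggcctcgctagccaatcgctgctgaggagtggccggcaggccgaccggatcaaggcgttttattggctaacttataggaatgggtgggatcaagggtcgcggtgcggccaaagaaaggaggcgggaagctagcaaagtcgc
The distal window of Il1rl1 held 5 matches, the proximal window 1 and the window of Map3k14 0. Of 32851 RefSeq promoter windows of mouse genes cut to the same 250 bases as the distal one, 26.5% held at least 1 match and 0.0426% held 5 or more. GATA2 and GATA3 are factors of mast cells and of T helper 2 and innate lymphoid cells. The motif was chosen after the sequences had been read, so the 0.0426% does not measure how unusual the distal window is. The windows were also not matched for base composition. G and C made up 37.6% of the distal window, 46.4% of the proximal one and 59.2% of that of Map3k14. None of the 3 windows matched the NF-kB consensus on either strand, which 7.25% of all windows did at 250 bases and 5.02% at the 179 bases of the Map3k14 window. These matches are letters in a window and were not tied to any count.

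The place of the genes among their neighbours is as follows. Il1rl1 stands in a run of 6 IL-1 receptor family genes on the plus strand (Il1r2, Il1r1, Il1rl2, Il1rl1, Il18r1 and Il18rap), of which only Il1rl1 is in the table. Il18r1, a receptor chain for interleukin 18, starts 136 bases past the end of Il1rl1 on the same strand. Map3k14 (ENSMUSG00000020941) lies at chr11:103219762-103267472 on the minus strand. Its coding transcript has 16 exons and encodes 942 residues, and 3 shorter transcripts have no coding sequence. The noncoding gene 1700028N14Rik overlaps the 5′ end of Map3k14 on the same strand over 2613 bases, which lie 45098 bases or more from the 3′ end where CEL-Seq2 reads are taken.

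Il1rl1 was higher in Allograft, in 4 of 5 libraries. In Spon. Healing it had 65.3, 53.5, 96.3 and 58.9 normalized counts in replicates 1 to 4, from 54, 77, 63 and 34 raw counts. In Allograft the normalized counts were 135 in replicate 1, 320 in replicate 2, 337 in replicate 3, 181 in replicate 4 and 37.4 in replicate 5, from 88, 281, 413, 399 and 44 raw counts. Replicates 1 to 4 of Allograft lay above every Spon. Healing library, and replicate 5 lay below every one of them. The group means were 68.5 ± 19.1 (SD, n = 4) and 202 ± 127 (SD, n = 5), a log2 ratio of 1.56. Without Allograft replicate 5 the Allograft mean was 243 ± 101 (SD, n = 4), 3.55-fold that of Spon. Healing. Leaving out the only library that overlapped leaves groups apart by construction, and 80 of the 98 genes had groups apart without that library. The 95% exact Poisson interval of Allograft replicate 5 (27.2 to 50.2) reached into those of Spon. Healing replicate 1 (from 49.0), 2 (from 42.2) and 4 (from 40.8). Overlap of these intervals is a description and not a test of 1 library against another. Such intervals cover counting error only.

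Map3k14 was lower in Allograft, in all 5 libraries. Its normalized counts in Spon. Healing were 29.0, 32.6, 48.9 and 48.5 in replicates 1 to 4, from 24, 47, 32 and 28 raw counts. In Allograft they were 13.8, 21.7, 9.79, 11.8 and 17.8 in replicates 1 to 5, from 9, 19, 12, 26 and 21 raw counts. Each Allograft library lay below each Spon. Healing library, and the nearest libraries of the groups were 21.7 in Allograft replicate 2 and 29.0 in Spon. Healing replicate 1. The means were 39.8 ± 10.4 (SD, n = 4) and 15.0 ± 4.78 (SD, n = 5), a log2 ratio of -1.41. Among all 98 listed genes 74.5% had groups that did not overlap, 53.1% with Allograft higher and 21.4% with Allograft lower. As the table was selected for a difference, the separation of 1 member and the overlap of the other set neither apart. The counts were low, and the 95% interval of Spon. Healing replicate 1 (18.6 to 43.2) overlapped that of Allograft replicate 2 (13.0 to 33.8). In raw counts without scaling the groups of Map3k14 overlapped, as Spon. Healing held 24 to 47 and Allograft 9 to 26.

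**Figure D1:**
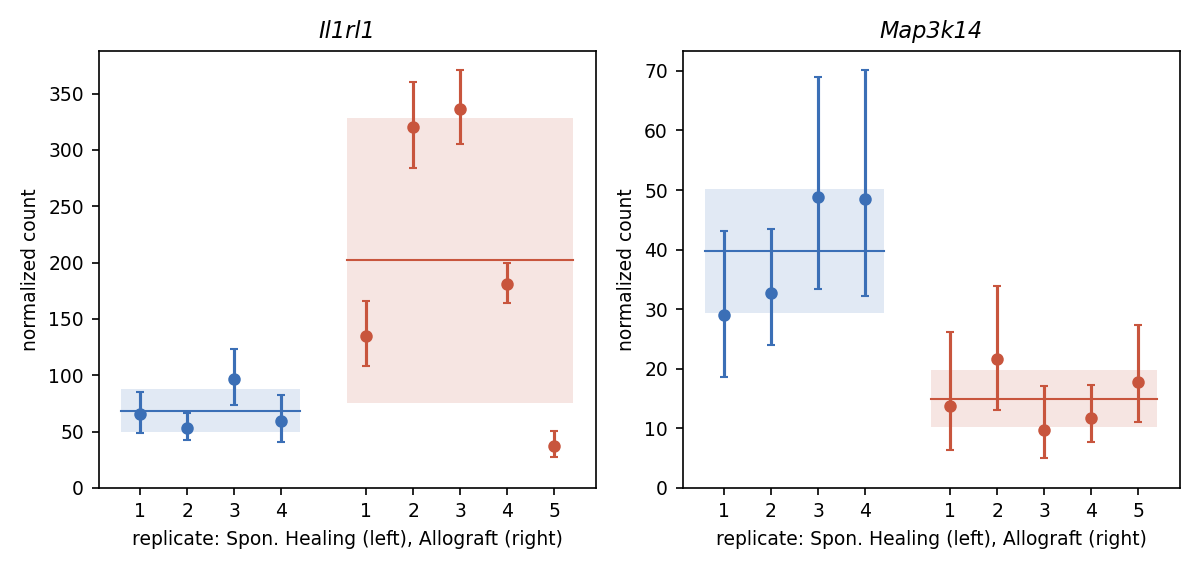
Normalized counts (vertical axis) of Il1rl1 and Map3k14 in each library, with replicates on the horizontal axis, Spon. Healing in blue and Allograft in red. Points carry 95% exact Poisson intervals, lines are group means and bands are ± 1 SD. Allograft replicate 5 is the lowest library for Il1rl1 at 37.4, whereas for Map3k14 all 5 Allograft libraries (9.79 to 21.7) lie below the 4 Spon. Healing libraries (29.0 to 48.9).

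In bulk bone, a change in the number of cells that carry a transcript and a change in RNA per cell cannot be told apart, for Il1rl1 as for Map3k14. Against the other listed genes, the log2 ratios were large. Il1rl1 ranked 4 by log2 ratio among the 65 higher genes, whose median log2 ratio was 0.55 over the 64 with any count in Spon. Healing. Map3k14 ranked 5 among the 33 lower genes, whose median was -0.94. These ranks describe a list that was itself selected for a difference.

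Il1rl1 and Map3k14 can also be set against each other inside each library, where the size factor cancels. The number of raw Il1rl1 counts per raw Map3k14 count was 2.25, 1.64, 1.97 and 1.21 in Spon. Healing replicates 1 to 4. In Allograft it was 9.78, 14.8, 34.4, 15.3 and 2.10 in replicates 1 to 5. Allograft replicates 1 to 4 thus stood above every Spon. Healing library, and replicate 5 fell between Spon. Healing replicates 1 and 3. This quotient compares libraries. It does not say which gene is more highly expressed, nor which of the genes changed. Allograft replicate 3 had both the highest Il1rl1 and the lowest Map3k14 of all 9 libraries. Replicate 2 departed from this opposition, with the second highest Il1rl1 and the highest Map3k14 of the Allograft group. In Allograft replicate 5 both genes lay below every Spon. Healing library, with 37.4 normalized counts of Il1rl1 and 17.8 of Map3k14.

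**Figure D2:**
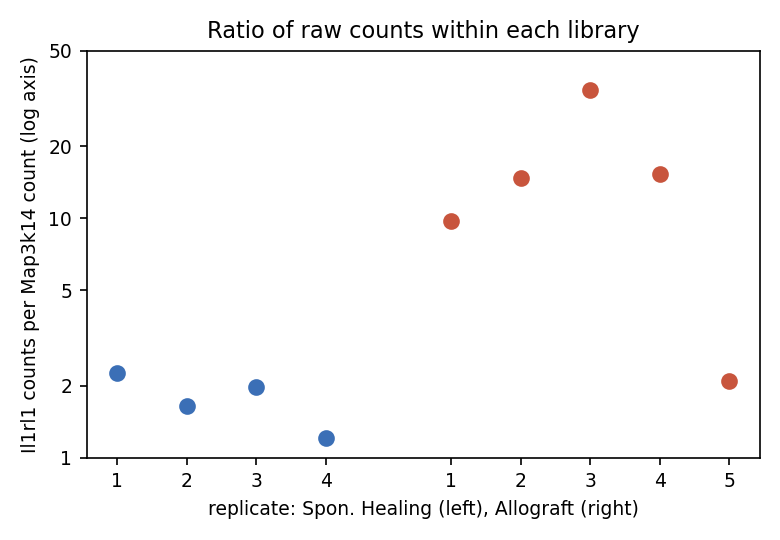
Raw Il1rl1 counts per raw Map3k14 count (vertical axis, log scale) in each library, with replicates on the horizontal axis, Spon. Healing in blue and Allograft in red. The 4 Spon. Healing libraries lie between 1.21 and 2.25, Allograft replicates 1 to 4 between 9.78 and 34.4, and Allograft replicate 5 at 2.10.

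The members differed in their spread within Allograft. For Il1rl1 the highest Allograft library was 9.01 times the lowest, and 2.50 times without replicate 5, against 1.80 times in Spon. Healing. The coefficient of variation (CV, the SD as a percentage of the mean) was 28.0% in Spon. Healing and 62.7% in Allograft. For Map3k14 it was 26.2% and 31.9%, and its highest Allograft library was 2.21 times the lowest. Across the listed genes the median CV was 16.3% in Spon. Healing and 16.2% in Allograft. Gm47356 had no count in Spon. Healing and so no CV there, and it is left out of that median. Of the genes with a CV in both groups, 52 had the larger CV in Allograft. By CV in Allograft, Il1rl1 ranked 5 of 98, next below the pseudogene Gm47356 (85.2%) and next above Spon2, a secreted matrix protein (50.6%). Of the 72 genes with an Allograft mean of at least 100 normalized counts, 1 had a larger CV than Il1rl1. This was Chac1, a glutathione-degrading enzyme of the stress response, named after its value was seen. Map3k14 ranked 20, between Ermard (33.6%) and Carf (31.8%). Without Allograft replicate 5 the CV of Il1rl1 in Allograft was 41.3%.

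The spread can also be set against the counting error of each gene. The variance of the raw counts around the group mean, scaled by the size factors, was 88.0 times the counting variance for Il1rl1 in Allograft and 4.36 times in Spon. Healing. For Map3k14 it was 1.78 times in Allograft and 2.22 times in Spon. Healing, where a value of 1 is counting error alone. The median over the listed genes was 13.2 in Allograft and 6.48 in Spon. Healing, where Gm47356, with no count there, entered as 0. Of the listed genes, 7 had a higher value than Il1rl1 in Allograft and 12 a lower value than Map3k14. This measure grows with the number of counts, so Map3k14 with 9 to 47 counts per library and Il1rl1 with 34 to 413 cannot be set side by side on it alone.

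**Figure D3:**
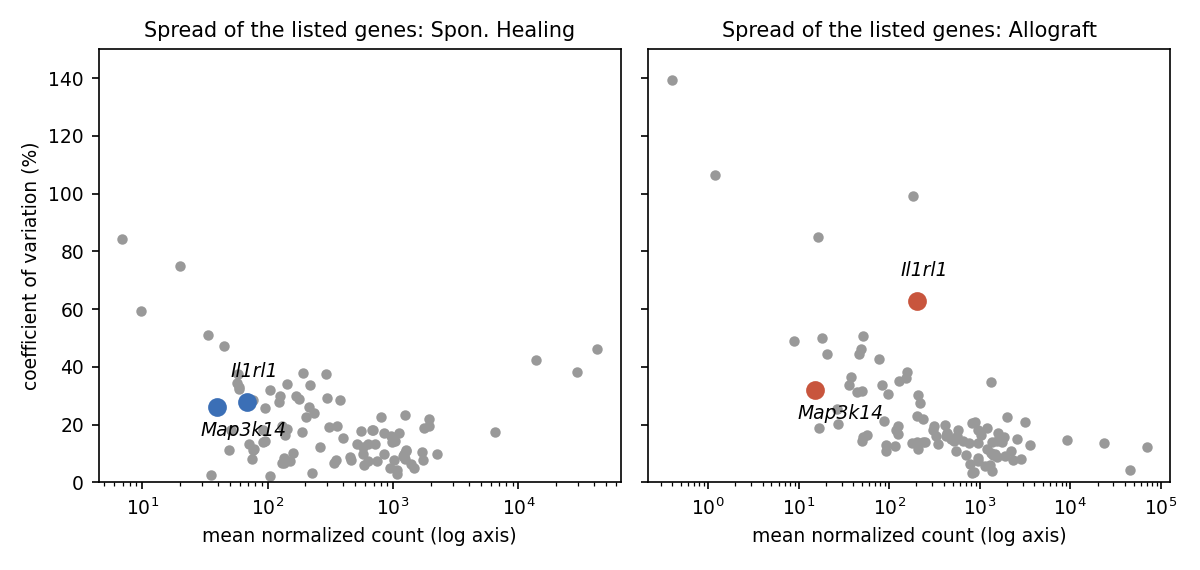
Coefficient of variation (vertical axis, %) against the mean normalized count (horizontal axis, log scale) of the listed genes in Spon. Healing and in Allograft, with Il1rl1 and Map3k14 as large coloured points and the other genes in grey (Gm47356, at 0 in Spon. Healing, is absent from that panel). Il1rl1 moves from 28.0% to 62.7%, where Chac1 (99.2%), at a similar level, lies higher, and Map3k14 from 26.2% to 31.9%.

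Allograft replicate 5 was not low throughout the table. Among the 65 higher genes it was the lowest Allograft library in 11, while replicate 4 was the lowest in 24, replicate 3 in 14 and replicates 1 and 2 in 8 each. Il1rl1 was the 1 higher gene for which Allograft replicate 5 lay under every Spon. Healing library. No other Allograft library did so for any of the 65 genes. Among the 33 lower genes Allograft replicate 5 was the highest Allograft library in 11 and the lowest in 0, while replicate 4 was the highest in 13. Replicate 1 was the lowest in 23 and replicate 4 in 0, with tied lowest values credited to the first of the tied libraries. In the locus Gm45110 replicates 1, 3 and 4 tied at 0.

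The table holds 98 selected genes, so few genes of any pathway can be in it, and the counts below say which were, not whether a pathway is short of them. Of 22 genes of IL-33 and ST2 signalling, 2 were listed, Il1rl1 itself and Tab2, both higher in Allograft as were 65 of the 98 listed genes. Tab2 encodes an adaptor that links TRAF6 to the kinase TAK1. Its normalized counts spanned 1102 to 1359 across the Spon. Healing libraries and 1381 to 1721 across those of Allograft, a log2 ratio of 0.35 between means of 1220 ± 108 (SD, n = 4) and 1554 ± 138 (SD, n = 5). IL-33 itself (Il33), Il1rap, Myd88, Gata2 and Gata3 were not listed. Of 10 genes of the IL-1 receptor family and 11 of IL-1 family ligands, Il1rl1 alone was listed. Of 24 genes of noncanonical NF-kB signalling, Map3k14 alone was listed, and Chuk, Nfkb2, Relb, Traf2, Traf3, Tnfrsf11a (RANK) and Tnfsf11 (RANKL) were not. None of the 22 genes on a list of canonical NF-kB components and targets was in the table. Tab2, counted above with IL-33 and ST2 signalling, was not on that list, so this depends on how the lists were drawn. Of 18 MAP3 kinases only Map3k14 was listed. Genes outside the table have no values here, which does not show that they were unchanged.

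Lists of cell type markers were read in the same way. Of 10 cell type lists, 9 held no listed gene, among them mast cells and basophils (11 genes), T cells (12), group 2 innate lymphoid cells (7), eosinophils (6), B and plasma cells (8), macrophages and monocytes (10), neutrophils (9), osteoclasts (10) and osteoblasts with bone matrix (13). Of 11 endothelial genes 1 was listed, Ushbp1, at 215 ± 55.8 normalized counts in Spon. Healing (SD, n = 4) and 77.6 ± 33.1 in Allograft (SD, n = 5). The levels of the unlisted markers were not analysed here, so whether the cell makeup of the bone moved with Il1rl1 or Map3k14 was not tested.

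The genes whose libraries stood in the most similar order were found by the mean absolute difference in rank over the 9 libraries. A value of 0 is the same order and 4.44 the largest possible difference. Nearest to Il1rl1 were Spon2, Fndc3b, the endoplasmic reticulum translocon subunit gene Ssr1, the RNA-binding factor Sfpq and the mitochondrially encoded mt-Nd1, each at 1.56, with a median of 2.44 over all other listed genes. In each of these 5 genes the groups did not overlap, as in 52 of the 65 higher genes. Allograft replicate 5 therefore stood above all Spon. Healing libraries in those 5. In Spon2 the Allograft values were 81.1, 31.9, 74.2, 44.0 and 22.9 in replicates 1 to 5, with replicate 5 the lowest of its group as in Il1rl1. Nearest to Map3k14 were the loci Gm45110 and Gm37274, each at 0.889, followed by Ushbp1, the linker histone H1f0 and the mitochondrial methionyl-tRNA synthetase gene Mars2, each at 1.11. Stk38 and Gm45718 tied at 1.11 and were placed after these by their standardized log2 profiles. Gm45110 had only 0 or 1 raw counts per Allograft library and 2 to 9 per Spon. Healing library. Its Allograft libraries were partly tied at 0, so its order within that group was hardly measured. Il1rl1 and Map3k14 were 4.22 apart, against a median of 4.44 between Map3k14 and all other listed genes. Any gene with all Allograft libraries above all Spon. Healing libraries lies at 4.44 from Map3k14, whatever its order within the groups. Since all listed genes were selected for a group difference, most of this likeness is the group direction, and it says nothing of shared control.

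**Figure D4:**
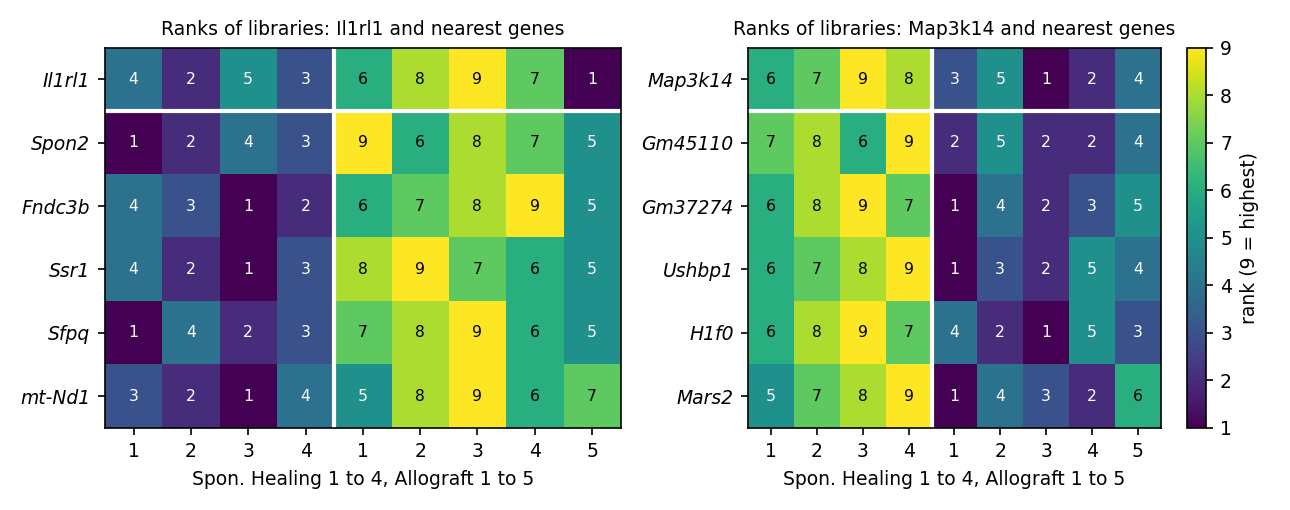
Rank of each library within a gene (1 lowest, 9 highest, colour and number) for Il1rl1 and its 5 nearest genes and for Map3k14 and its 5 nearest genes, with genes as rows and the 4 Spon. Healing and 5 Allograft libraries as columns. Il1rl1 has rank 1 in Allograft replicate 5, where its nearest genes have ranks 5 to 7.

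The direction of both differences held under every scaling, summary and left-out library that was tried. Both genes were selected for a difference in these same libraries, so this is a description and no independent support. The log2 ratio of Il1rl1 lay between 1.14 and 2.10 and that of Map3k14 between -1.83 and -0.91. Scaling to the listed genes themselves by TMM moved the median log2 ratio of all listed genes by -0.32, and the ratio of Il1rl1 became 1.24 and that of Map3k14 -1.74.

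**Figure D5:**
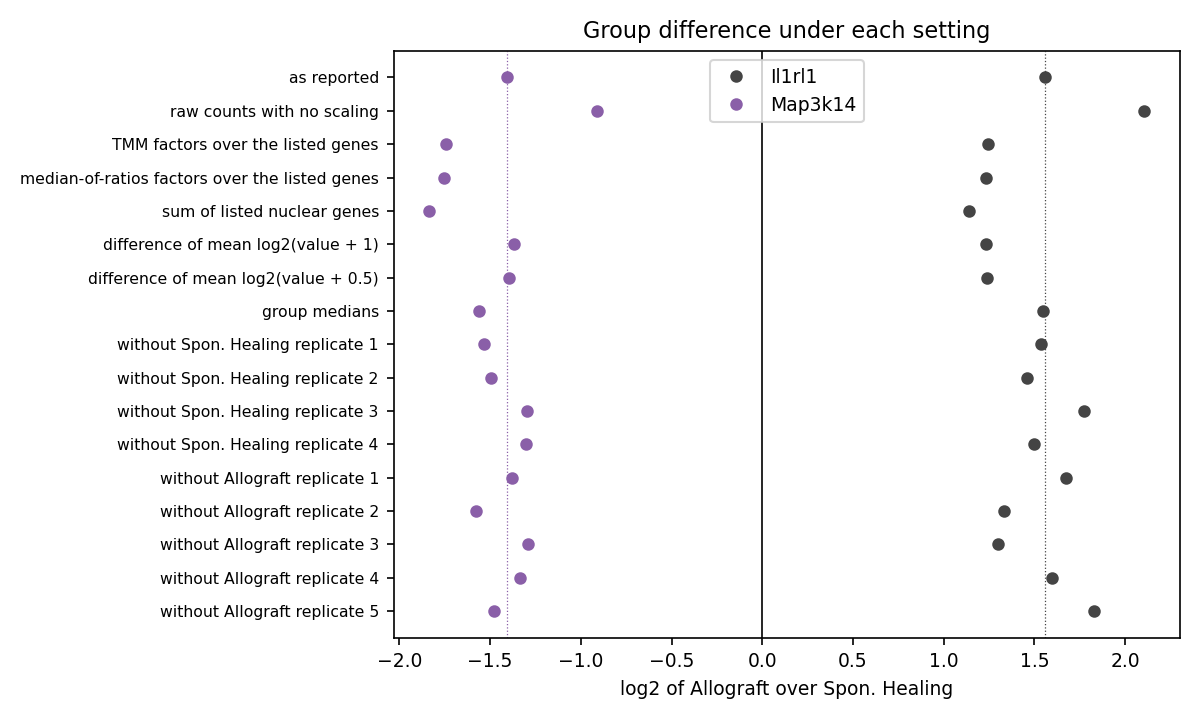
Log2 of Allograft over Spon. Healing (horizontal axis) for Il1rl1 and Map3k14 under each scaling, summary and left-out library (rows), with dotted lines at the reported 1.56 and -1.41. All values of Il1rl1 lie above 0 and all values of Map3k14 below 0.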

How the data were processed

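The authors trimmed reads with cutadapt, aligned them to GRCm38 (Ensembl release 99) with TopHat and made the deposited raw counts per gene with htseq-count, using strand. Tool versions, and whether molecular identifiers were counted, are not given in the sources used here. The deposited normalized signal comes from dividing raw counts by DESeq2 size factors, and its ratio to the raw count was constant in each library within 1e-09. The deposited p-values, fold changes and their errors belong to the authors' comparison. Only the adjusted p-value was read, to check that all 98 rows were under 0.1.

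Group means, SDs, CVs, ranks and exact Poisson 95% intervals were computed in Python 3.11.15 (numpy 2.4.6, pandas 2.3.3, scipy 1.17.1), and TMM factors in R 4.3.3 with edgeR 4.0.16. The statistics were tested on simulated data. No test of the groups was run, since the genes were selected for that difference. Alternatives were 4 scalings, pseudocounts of 1 and 0.5, group medians, a minimum mean of 10 counts and each library left out. Gene positions come from GENCODE M21 on GRCm38, whose coordinates of both genes equal those of the table, and promoters from RefSeq.

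Replicate numbers follow the sample titles. The table's columns carry other numbers for Spon. Healing replicates 1 to 4 (NT2, NT4, NT5 and NT6) and for Allograft replicate 5 (Saline6).

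The members and the 16 gene lists were chosen with earlier results of these data known. Named genes were both members, the 5 genes nearest to each in library order (ties ordered by the root mean square difference of standardized log2(value + 1) profiles), listed genes of the 16 lists and the neighbours of each member in Allograft CV.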

Additional observations from a re-analysis of the deposited data

How the results depend on the processing

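The log2 ratio of Il1rl1 moved by less than its replicate spread of 0.99 from its reported 1.56 under all 7 other settings (1.14 to 2.10) and with each library left out (1.30 to 1.83). That of Map3k14, reported as -1.41, was -0.91 in raw counts with no scaling and -1.83 when scaled by the sum of listed genes that are not mitochondrially encoded, both moved by more than its replicate spread of 0.41. That spread is the narrower, and in raw counts Il1rl1 moved as far (to 2.10). The median of all listed genes shifted by 0.42 and -0.41 under these scalings. With each library left out the log2 ratio of Map3k14 ran from -1.58 to -1.29. The number of listed genes whose groups did not overlap was 73, 72 with a mean of at least 10 raw counts, 35 with TMM factors over the listed genes, 5 in raw counts with no scaling, and 74 to 81 with a library left out. The CV in Allograft ran from 41.3% to 72.4% for Il1rl1 and from 25.9% to 36.4% for Map3k14 with an Allograft library left out.

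No paired analysis was possible because nothing in the labels ties a sample of 1 group to a sample of the other beyond a shared number, and no test was run. The counts of Map3k14 limit its precision more than those of Il1rl1. The depth of the libraries is unknown here.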
